A study of Mus musculus with 7 samples.

Results

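The cell-surface proteins that carry heparan sulfate were followed in RNA-seq of the mouse outflow tract (OFT), the single vessel through which blood leaves the embryonic heart. Of 10 genes named for this account, 9 had a row among the 14732 listed genes: the glypicans Gpc1, Gpc2, Gpc3, Gpc4 and Gpc6 and the syndecans Sdc1, Sdc2, Sdc3 and Sdc4. The expression of Gpc5 is not analysed here. The genes were chosen by family, and with their measured values in view: Gpc1 was known to be lower in every mutant pool. The contrast of mutant with control was therefore used in the choice, and for these 9 genes it is given as a description. No p is given for any of them, and where the number past a threshold is counted, nothing is read from it.

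OFTs were dissected at embryonic day 11.5 and combined before sequencing, 4 pairs to a pool. There were 3 control pools, labelled WT, with replicate numbers 3, 4 and 5, and 4 Gata6STOP/+ pools, numbered 1, 3, 4 and 5. The mutants carry, in heterozygosity and in every cell, a CRISPR-Cas9 allele of Gata6 with a premature stop, from a selected founder bred to C57BL/6, and no Cre or other allele is given for either group. The study's methods name 3 pools per genotype, and all 7 labelled pools were used. The litters behind each pool are not given, so p-values measure only the spread between these pools, which may be partly technical. Values are in CPM (counts-per-million), that is, reads scaled to a common library size, and 17783655 to 34467710 reads fell on listed genes in each pool.

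Glypicans and syndecans are the main families of proteoglycans that hold heparan sulfate at the cell surface. Glypicans are tied to the outer membrane leaflet by a lipid (GPI) anchor, whereas syndecans span the membrane and bind scaffold and cytoskeletal proteins inside the cell. Their sugar chains bind FGF, WNT, BMP, hedgehog and VEGF ligands and matrix proteins, and so set how far such ligands spread and how well receptors hold them. The sulfation pattern of the chain, written by enzymes of the Golgi apparatus and edited outside the cell, decides which ligands bind. In the heart, such ligands guide the addition of progenitor cells to the OFT and the formation of its cushions.

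GATA6 is a zinc-finger factor that binds short DNA motifs with GATA at their core, so 4 motifs (AGATAA or, with another last letter, AGATAG, then TGATAA or, with another last letter, TGATAG) were searched on both strands of RefSeq promoter windows, each from 250 bases before to 50 bases after a gene's start (GRCm38.p6). Windows were matched for 7 of the 10 genes (all but Gpc1, Gpc6 and Sdc2). The motif was found in 3 of these 7 (42.9%), against 9778 of all 32851 windows (29.8%) and 8 of 49 windows of the heparan sulfate pathway genes described further on (16.3%). The 3 matches are shown because they are the places in these windows where the letters of the mutated factor's motif occur. Each stretch is 30 bases of the gene's own strand, with the motif in capitals, and in all 3 the motif reads on the other strand.
Sdc4, chr2:164443402-164443431, minus strand: tagatcggttaaCTATCAtgggctgcagct
Gpc2, chr5:138280033-138280062, minus strand: gccggcttcttcTTATCAttggcgggctac
Gpc5, chr14:115091993-115092022, plus strand: aactcatgtttcTTATCTcctgccttctct
Counted from the RefSeq gene start, the first base of the motif is at −231 in Sdc4, −113 in Gpc2 and −210 in Gpc5. In GENCODE M21 the start of Sdc4 is at chr2:164443887, so by that annotation its motif lies inside the gene. A match of 6 letters is a description of sequence, and binding was not measured here.

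Gata6, the targeted gene, was read first as a check of the labels. Its CPM was 315, 257 and 286 in control replicates 3, 4 and 5, and 268, 203, 219 and 217 in Gata6STOP/+ replicates 1, 3, 4 and 5. The mutant mean (227±28.7 CPM, s.d., n=4) was 79.2% of the control mean (286±28.9 CPM, n=3), and the groups overlapped through Gata6STOP/+ replicate 1. The log2 fold change was −0.34 (standard error 0.10). In limma the unadjusted p was 0.00578 and the adjusted p over all genes 0.389. An exact two-sided permutation test over the 35 ways to split the pools gave a p of 0.114. The smallest permutation p that this design allows is 0.0571. The study itself reported lower Gata6 in its own RNA-seq test and by quantitative PCR.

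Gpc1 was the one glypican whose groups did not overlap. Gpc1 (ENSMUSG00000034220) lies on the plus strand of chromosome 1 (GRCm38, chr1:92831645-92860779) and encodes a glypican known to bind FGF2 and to be abundant in the nervous system. Its CPM was 229.9, 154 and 183 in control replicates 3, 4 and 5. In Gata6STOP/+ replicates 1, 3, 4 and 5 it was 119, 104, 136 and 124. All 4 mutant pools were therefore below all 3 control pools, and control replicate 3 stood highest. The mean was 189±38.2 CPM (s.d., n=3) in control and 121±13.1 CPM (n=4) in mutant pools, or 63.9% of control. This is a log2 fold change of −0.63 (standard error 0.12) on the log2(CPM+0.5) scale, with 2882 to 4794 reads behind each value. In pooled whole tissue, fewer cells of a type and less RNA per cell cannot be told apart.

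Other measures were read in the same pools as Gpc1. The 6 listed neural crest and glial markers summed to 203 to 239.8 CPM in control and 166 to 207 CPM in mutant pools, with overlap. On the log2 scale the mean of this list did not overlap. Against its mean over the 7 pools it was at 0.068 to 0.145 in control and −0.193 to −0.003 in mutant pools. Taken singly, 0 of the 6 genes were without overlap. The 10 neuronal markers summed to 58.1 to 82.5 CPM in control and 65.8 to 77.6 CPM in mutant pools, a range within that of control. Their mean on the log2 scale was at −0.203 to 0.109 in control and −0.219 to 0.242 in mutant pools, a wider range than that of control. The part of either list in the Gpc1 values was not tested. The 4 Y-linked genes summed to 39.9 to 93.4 CPM in control and 70.4 to 174 CPM in mutant pools, and Xist was at 362 to 662 CPM in control and 1.30 to 539 CPM in mutant pools. The sex of the embryos is not given, and by these values it was not balanced between the genotypes. Sex and genotype therefore cannot be fully told apart in any contrast here, X-linked genes included. When the mean Y-linked level entered the fit as a covariate, the Gpc1 fold change was −0.94. Leaving out each pool in turn gave −0.77 to −0.48, the smaller change without control replicate 3. Exons of Gpc1 overlap those of Ankmy1 on the opposite strand over 977 bp. The library kit kept strand, but whether counting used it is not stated. No 60-base word of the Gpc1 transcripts is shared with another gene.

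**Figure D1:**
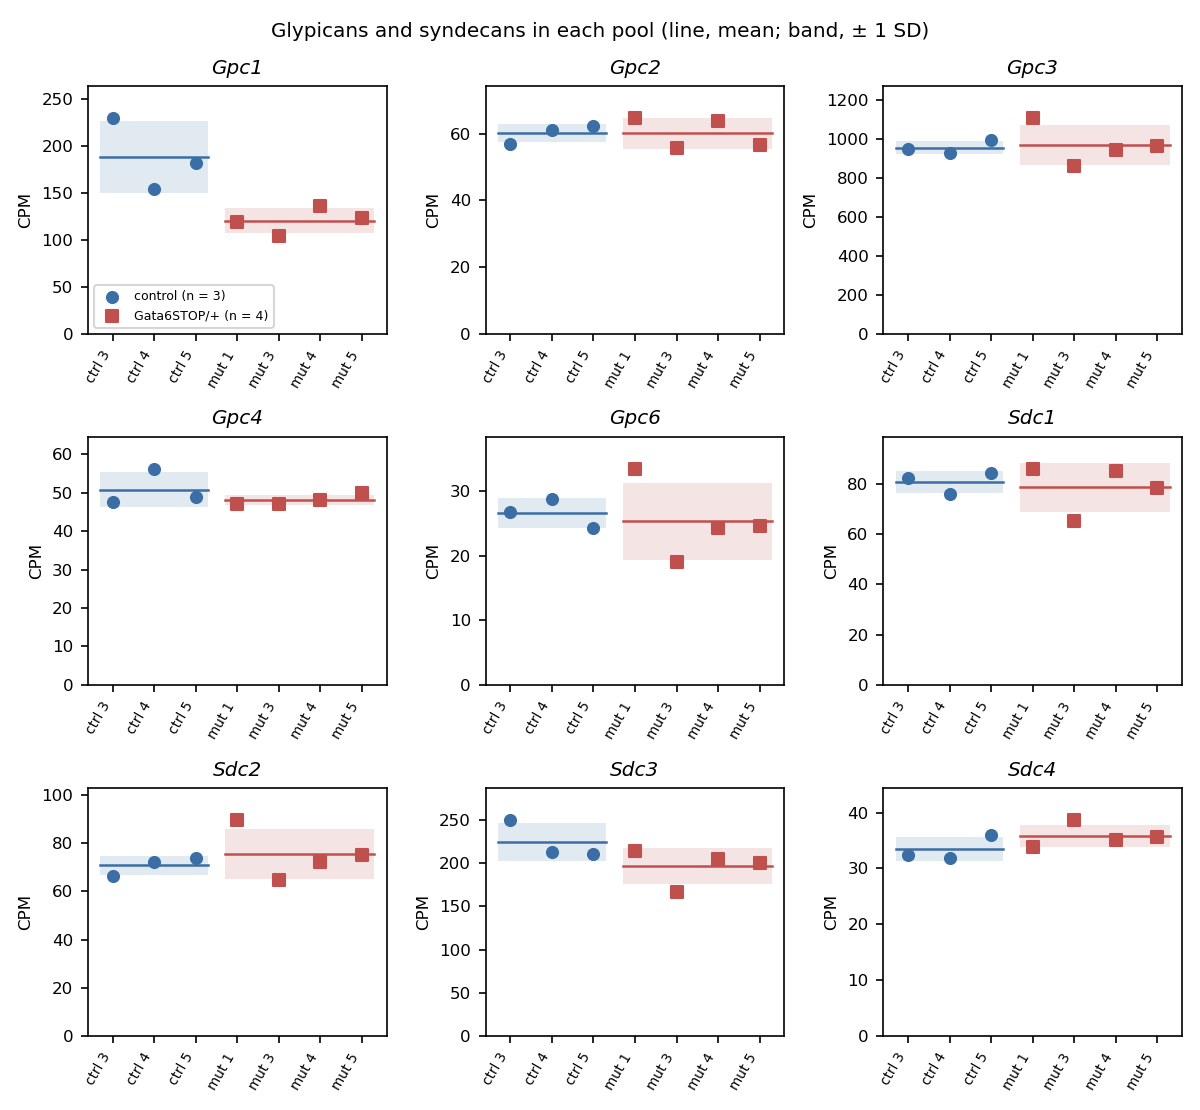
Level in CPM (vertical axes from 0) of the 9 listed glypicans and syndecans in each pool: circles are the 3 control pools, squares the 4 Gata6STOP/+ pools, lines the group means and bands 1 s.d. either side. For Gpc1 the 4 mutant pools (104 to 136 CPM) sit below the 3 control pools (154 to 229.9 CPM), whereas for each of the other 8 genes the groups overlap.

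The other glypicans overlapped between genotypes. Gpc3, an X-linked glypican that restrains hedgehog signalling and whose loss causes an overgrowth syndrome, had 947, 927 and 994 CPM in the control pools in replicate order. In the mutant pools it had 1106, 860.3, 943 and 966 CPM. The mutant pools thus held both the lowest and the highest value, and the log2 fold change was 0.01 (standard error 0.09). Gpc4, its neighbour on the X chromosome with a gap of 107 kb, had 47.5, 56.1 and 48.8 CPM in control and 47.1, 47.2, 48.0 and 49.9 CPM in mutant pools. Its fold change was −0.08 (standard error 0.07), and control replicate 4 alone stood above the rest. Both X-linked glypicans thus differed by about their standard error or less.

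Gpc2, a glypican of differentiating neurons, had 57.0, 61.1 and 62.3 CPM in control and 64.6, 55.6, 63.7 and 56.7 CPM in mutant pools (log2 fold change −0.001, standard error 0.07). Its level is uncertain, since 48.5% of the 60-base words in its transcripts are shared with Gm43720, an overlapping gene on the same strand. Gpc6, which lies 400.1 kb from Gpc5 on chromosome 14 and is known for its part in the growth plate, had 26.7, 28.8 and 24.3 CPM in control and 33.4, 19.1, 24.2 and 24.5 CPM in mutant pools. It varied most within groups among these genes, with a within-group s.d. of 0.26 on the log2 scale, and its fold change was −0.10 (standard error 0.15).

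Among the syndecans, Sdc3 came nearest to a separation. Sdc3 (ENSMUSG00000025743, chr4:130792537-130826319, plus strand) encodes the syndecan typical of neural and musculoskeletal tissue. It had 249.6, 213 and 211 CPM in the control pools and 214, 166, 205 and 200.4 CPM in the mutant pools. Gata6STOP/+ replicate 1 was the 1 mutant pool within the control range, so Sdc3 lay just outside the pattern by which Gpc1 was known, whereas for Gpc1 the highest mutant pool (136 CPM) was below the lowest control pool (154 CPM). The mean was 196±20.9 CPM (n=4) against 224±21.9 CPM (n=3), or 87.6% of control, a log2 fold change of −0.19 (standard error 0.09). With the Y-linked covariate it was −0.40, and without control replicate 3 it was −0.11.

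The remaining syndecans differed less. Sdc1, the syndecan of epithelia and plasma cells, had 82.0, 75.8 and 84.1 CPM in control and 85.7, 65.0, 85.0 and 78.4 CPM in mutant pools (log2 fold change −0.05, standard error 0.09). Sdc2, the syndecan of mesenchymal and endothelial cells, had 66.6, 72.1 and 74.0 CPM in control and 89.5, 64.6, 72.4 and 75.3 CPM in mutant pools (0.08, standard error 0.10). Sdc4, a widely made syndecan of focal adhesions that activates protein kinase C alpha, had 32.5, 31.9 and 36.0 CPM in control and 33.9, 38.6, 35.02 and 35.6 CPM in mutant pools (0.10, standard error 0.07). All 3 overlapped between genotypes.

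Over the 9 genes, 3 fold changes were above 0 and 6 below, with a median of −0.05 against −0.001 over all genes. Of the 9, 0 passed an adjusted p of 0.05 in limma, as did 0.0% of all genes. At an unadjusted p under 0.05 limma had 1187 genes (8.06%) and edgeR's quasi-likelihood test, which also called 0 after adjustment, had 1177. With edgeR's likelihood ratio test on the recovered reads, 1 of the 9, Gpc1, was past 0.05 among 105 of all genes (0.713%), and DESeq2 likewise called Gpc1 among 88. One gene of the 9 was lower in mutants with no overlap, where 4.16% of all genes were, and 0 were higher, where 4.31% of all genes were. Since Gpc1 was known beforehand for this pattern, nothing is read from these counts.

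Leaving out a pool can only add genes to the count without overlap. Without control replicate 5, Sdc4 was higher in all mutant pools, where 8.23% of all genes then were. Without Gata6STOP/+ replicate 1, Sdc3 was lower in all mutant pools, where 6.18% of all genes then were. These counts were added after the values were seen.

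**Figure D2:**
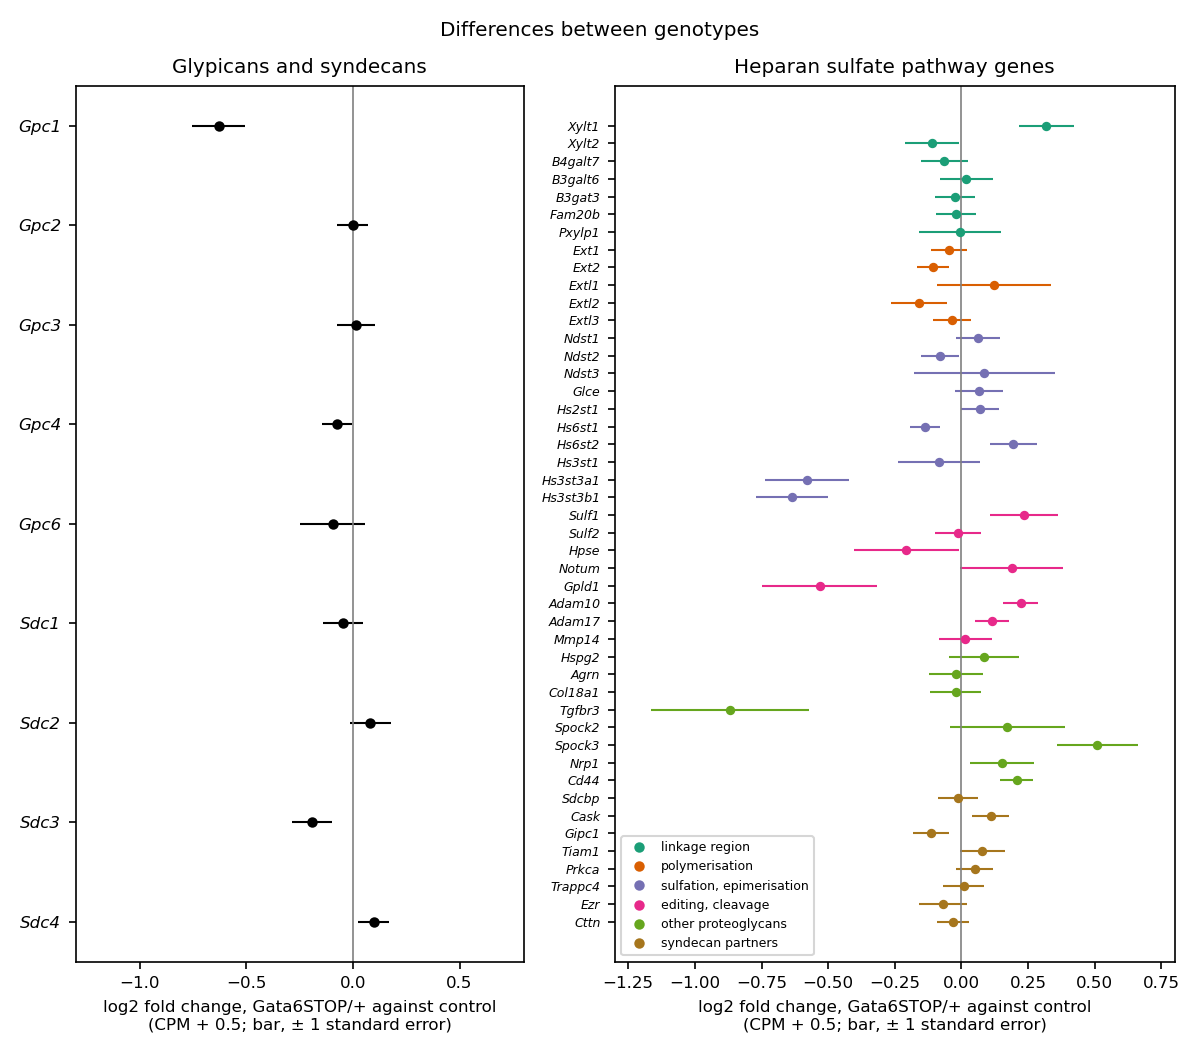
Log2 fold change (horizontal axis, Gata6STOP/+ against control on CPM+0.5) of the 9 glypicans and syndecans (left) and the 46 listed heparan sulfate pathway genes (right, coloured by role), with bars of 1 standard error. Gpc1 at −0.63 stands apart on the left, and on the right Tgfbr3 (−0.87), Hs3st3b1 (−0.63), Hs3st3a1 (−0.58) and Gpld1 (−0.53) lie lowest and Spock3 (0.51) highest.

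Levels were compared between genes only per kb of exon, with all annotated exons of a gene merged. On this scale Gpc3 was by far the most abundant, at 355±12.7 CPM per kb in control pools (s.d., n=3). Sdc3 (37.5±3.65) and Gpc1 (36.6±7.41) followed and overlapped with each other. Next came Sdc1 (21.2±1.14), Sdc2 (20.1±1.09) and Gpc4 (19.2±1.74), where each gene overlapped with its neighbour in the order. Gpc2 (14.1±0.65) and Sdc4 (13.1±0.86) also overlapped, and Gpc6 was lowest at 4.14±0.351 CPM per kb. Over the 7 pools, neighbours were separated at 3 places, between Gpc3 and Sdc3, between Gpc4 and Gpc2, and between Sdc4 and Gpc6. Gpc1 and Sdc1 were separated in the control pools alone. In the mutant pools Gpc1 was at 23.4±2.54 CPM per kb (n=4), beside Sdc2 at 21.4±2.95 and Sdc1 at 20.6±2.52.

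Shares within each family were computed on the same scale. Gpc3 made up 82.8±1.13% of summed glypican level in control (81.5% to 83.7%) and 85.8±0.969% in mutant pools (84.7% to 87.1%). Gpc1 was at 10.3%, 7.21% and 8.02% of the glypicans in the control pools and at 4.88%, 5.41%, 6.38% and 5.72% in the mutant pools, which restates its lower level. Sdc3 made up 40.7±2.96% of summed syndecan level in control (38.1% to 44.0%) and 36.9±0.977% in mutant pools (35.5% to 37.6%). The shares of Gpc3, Gpc1 and Sdc3 did not overlap between genotypes, whereas the CPM of Gpc3 and of Sdc3 did overlap. No such share was computed over all genes, so nothing is read from this separation. Shares within a family sum to a whole and so depend on one another. The means of the other 3 syndecans lay between 14.3% and 24.0% in either group.

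**Figure D3:**
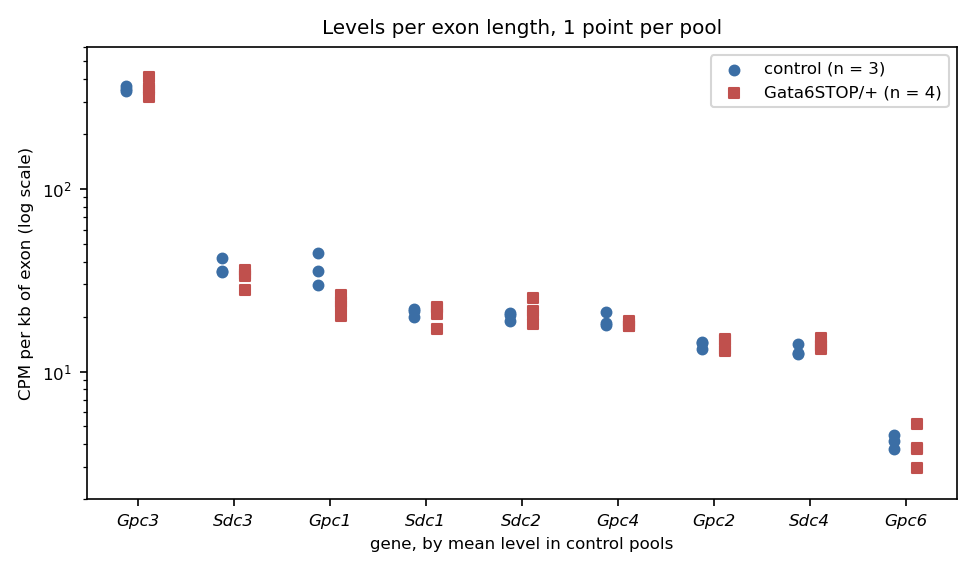
Level of each listed glypican and syndecan per kb of exon (vertical axis, CPM per kb, log scale), 1 point per pool, with genes ordered by their mean in the 3 control pools (circles; squares are the 4 Gata6STOP/+ pools). Gpc3 (320 to 411 CPM per kb) lies above all others, Gpc6 (2.97 to 5.19) below, and Gpc1 is level with Sdc3 in control pools but beside Sdc1 and Sdc2 in mutant pools.

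The pools themselves did not move alike. Gata6STOP/+ replicate 3 held the lowest value for 7 of the 9 genes, and Gata6STOP/+ replicate 1 held the highest for 5 of the 9. The same pools stood apart in cell type markers: cardiomyocyte markers summed to 18229 CPM in Gata6STOP/+ replicate 1 against 22300.2 to 25786 CPM in the other 6 pools. Mesenchymal markers summed to 4916 CPM in Gata6STOP/+ replicate 3 against 5660 to 7055 CPM in the others. Standing apart in a marker list was not particular to these pools. Erythroid markers, for example, summed to 7675 CPM in Gata6STOP/+ replicate 5 against 2495 to 6020 CPM in the others. The part of these differences in the values of single genes was not tested. All 10 cardiomyocyte, all 7 smooth muscle and all 9 endothelial markers were listed, and 3 of 9 epithelial markers were listed, summing to 71.0 to 118 CPM, without Epcam and Cdh1.

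**Figure D4:**
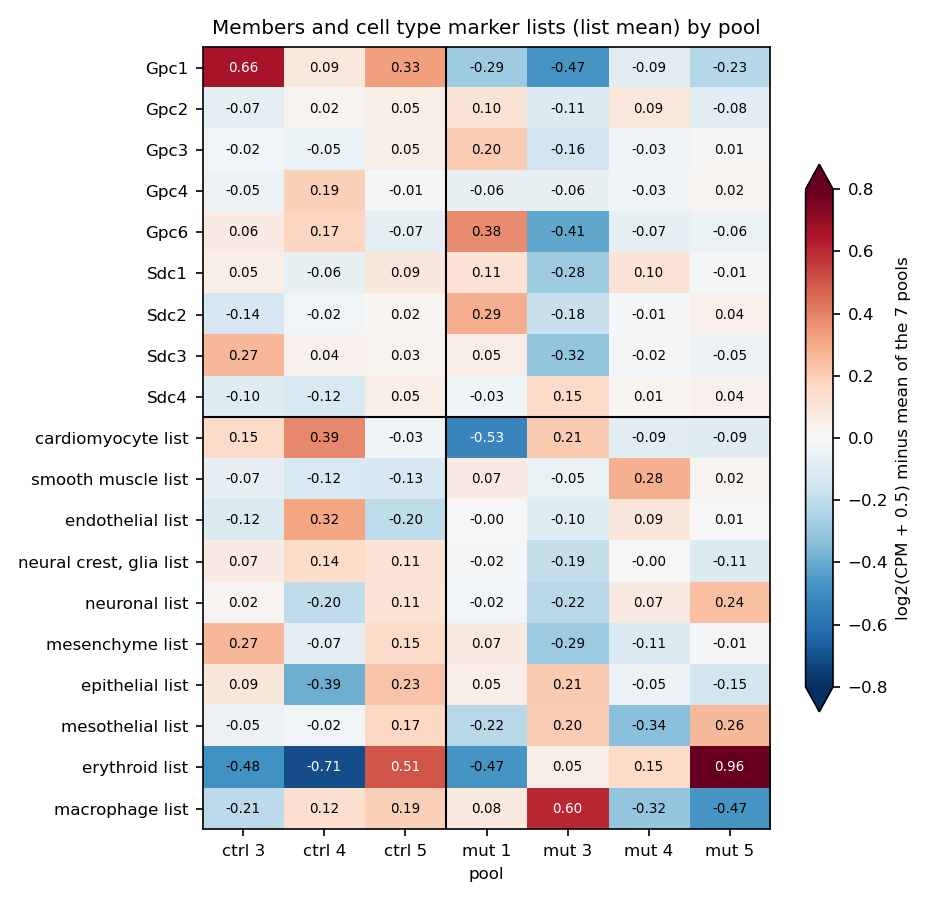
Deviation of each glypican and syndecan (upper rows) and of the mean of each marker list (lower rows) from its own mean over the 7 pools, in log2(CPM+0.5) units, printed in each cell with red above and blue below the mean. Gpc1 is above its mean in all 3 control pools (0.09 to 0.66) and below it in all 4 mutant pools (−0.47 to −0.09), Gata6STOP/+ replicate 3 is blue in 8 of the 9 genes (all but Sdc4), and the cardiomyocyte list is lowest in Gata6STOP/+ replicate 1 (−0.53).

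Genes with profiles most like that of Gpc1 were sought among the 8307 genes whose mean reached 20 CPM, by the root mean square difference between centred log2 profiles over the 7 pools. The nearest 5 were Rtn1 (0.13), a reticulon of the endoplasmic reticulum in neural cells; Diras2 (0.131), a small GTPase; L1cam (0.149), a neural cell adhesion molecule; Col9a3 (0.151), a chain of cartilage collagen IX; and Inhba (0.152), which encodes the activin A subunit. L1cam, for example, had 43.1, 21.6 and 24.4 CPM in control and 19.2, 16.7, 20.5 and 17.4 CPM in mutant pools. Of the 5, Col9a3 overlapped between genotypes, and since likeness to Gpc1 chose them, the lower mutant values of the others are no separate result. Among the glypicans and syndecans, Sdc3 was nearest to Gpc1 (0.247) and Sdc2 farthest (0.422).

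The genes that build, edit and share the chains were read next from 6 lists, 46 of whose 55 genes were listed. Of the 46, 22 fold changes were above 0 and 24 below, with a median of −0.01. In limma 0 passed an adjusted p of 0.05 in either direction (0.0% of all genes), and 10 (21.7%) had an unadjusted p under 0.05, against 8.06% of all genes. With no overlap between genotypes, 4 were higher in mutants (8.7% of the 46) and 5 lower (10.9%), against 4.31% and 4.16% of all genes. Those 9 genes were spread over sulfation, cleavage and other proteoglycans. The lists were chosen with earlier results of these data known, so nothing is read from these shares.

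Enzymes that start and extend the chain overlapped between genotypes. Of the 7 linkage region genes, 2 fold changes were above 0 and 5 below, and of the 5 polymerisation genes 1 was above and 4 below. Xylt1, which adds the first sugar of the linkage region and is named after its values were seen, had the largest difference of these 12, at 125% of control (0.32, standard error 0.10, unadjusted p 0.0107 and adjusted p 0.443 in limma). Ext1 and Ext2, the paired subunits of the polymerase, were at 97.0% and 92.9% of control, or −0.05 (standard error 0.07) for Ext1 and −0.11 (standard error 0.06) for Ext2 on the log2 scale. Ndst1, which removes acetyl groups and adds the first sulfates, was at 105% of control (0.06, standard error 0.08). Glce, the epimerase, and Hs2st1, which sulfates the epimerised residues, were each at 105% of control too (0.07 for each, standard errors 0.09 and 0.07).

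Of the 10 listed genes that modify the chain, 5 fold changes were above 0 and 5 below, and 0 passed the threshold. Hs3st3b1 and Hs3st3a1 add 3-O-sulfate, a late and sparse mark on the chain, and lie 513 kb apart on chromosome 11. Hs3st3b1 had 9.30, 11.5 and 8.34 CPM in control and 6.07, 6.70, 5.17 and 6.28 CPM in mutant pools. All mutant pools were below all control pools, with a log2 fold change of −0.63 (standard error 0.14) and an adjusted p of 0.215 in limma, the smallest of the 46. On the recovered reads, 127 to 334 per pool, its adjusted p was 0.0105 in edgeR's likelihood ratio test and 0.0131 in DESeq2. On simulated reads the likelihood ratio test called 31 unchanged genes and DESeq2 23, against 13 in limma. The adjusted p of Hs3st3b1 was between 0.105 and 0.495 in the other alternatives, of which the Y-linked covariate gave the smallest change (−0.41). Hs3st3a1 had 12.3, 8.49 and 8.12 CPM in control and 7.23, 5.91, 6.39 and 5.35 CPM in mutant pools. It too did not overlap, with a fold change of −0.58 (standard error 0.16) and an adjusted p of 0.347 in limma. These transcripts share 386 words of 60 bases (7.96% and 9.95% of each), so reads could pass between them, and Hs3st3a1 exons also overlap F930015N05Rik on the opposite strand over 1295 bp. Its change was −0.40 without control replicate 3. Hs3st1, which adds the same mark and is named after its values were seen, was at 93.7% of control with overlap (−0.08, standard error 0.15, adjusted p 0.917).

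The 6-O-sulfotransferases differed less and in opposite directions. Hs6st1 was at 108, 109 and 108 CPM in control and at 94.3, 98.6, 96.9 and 104 CPM in mutant pools (log2 fold change −0.14, standard error 0.06, limma adjusted p 0.571). The X-linked Hs6st2 was at 63.9, 69.9 and 70.6 CPM in control and at 92.2, 72.6, 72.1 and 76.6 CPM in mutant pools (0.20, standard error 0.09, adjusted p 0.611). Neither overlapped between genotypes, with Gata6STOP/+ replicate 1 farthest from control in both, and without that pool the change of Hs6st2 was 0.12. Sulf1 and Sulf2, which strip 6-O-sulfates outside the cell, were at 116% and 99.4% of control (0.23 and −0.01, standard errors 0.13 and 0.09), both with overlap. Without control replicate 3, the lowest pool for Sulf1, its change was 0.05.

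Among the enzymes that release proteoglycans from the surface, Adam10, a metalloprotease that sheds syndecans, had 235, 259 and 248 CPM in control and 306, 266, 284 and 298 CPM in mutant pools. It was higher in every mutant pool by 0.22 on the log2 scale (standard error 0.07, limma adjusted p 0.398). The proteases Adam17 and Mmp14, named after their values were seen, were at 108% and 102% of control, both with overlap. Of the 8 listed genes that edit or cleave, Sulf1 and Sulf2 among them, 5 fold changes were above 0 and 3 below. Gpld1, a phospholipase that cuts GPI anchors, had 1.34, 1.28 and 1.06 CPM in control and 0.596, 1.05, 0.570 and 0.611 CPM in mutant pools (−0.53, standard error 0.22, adjusted p 0.567). It rests on 14 to 37 reads a pool, Gata6STOP/+ replicate 3 (1.05 CPM) was close to the lowest control pool (1.06 CPM), and its exons overlap those of Mrs2 on the opposite strand over 2466 bp. Its change was −0.29 with the Y-linked covariate and −0.26 with a constant of 2 in place of 0.5.

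Of the 8 other listed carriers of heparan sulfate, 2 were higher and 1 lower in every mutant pool, 5 overlapped, and 0 passed the threshold. Tgfbr3 (betaglycan), a co-receptor for TGFβ2 that is required for coronary vessel development, had 19.6, 53.2 and 19.5 CPM in control and 13.4, 14.3, 13.0 and 18.9 CPM in mutant pools. All mutant pools were lower (log2 fold change −0.87, standard error 0.30, limma adjusted p 0.466), but control replicate 4 stood far above the rest. Without that pool the change was −0.39, and with the Y-linked covariate it was −0.34. Spock3, a secreted testican, had 5.99, 8.04 and 7.50 CPM in control and 13.1, 8.62, 10.7 and 9.51 CPM in mutant pools (0.51, standard error 0.15, adjusted p 0.400). Cd44, the hyaluronan receptor, some forms of which carry heparan sulfate, had 89.3, 78.4 and 80.3 CPM in control and 91.7, 95.8, 97.1 and 97.2 CPM in mutant pools (0.21, standard error 0.06, adjusted p 0.400). Both were higher in every mutant pool.

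**Figure D5:**
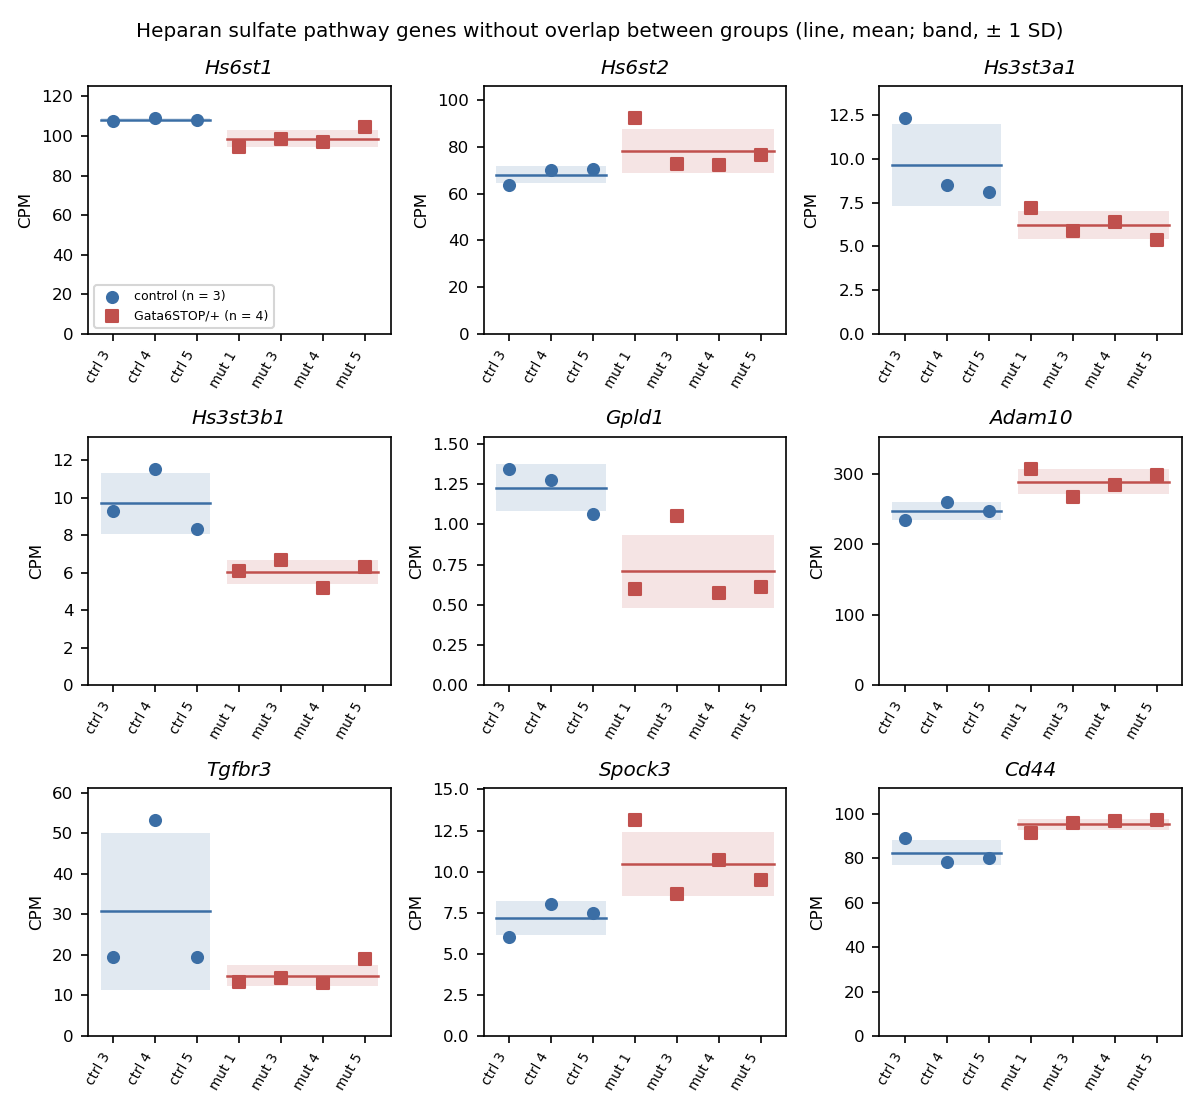
CPM (vertical axes from 0) in each pool of the 9 heparan sulfate pathway genes whose control pools (circles) and Gata6STOP/+ pools (squares) do not overlap, with lines at the means and bands of 1 s.d. Hs6st1, Hs3st3a1, Hs3st3b1, Gpld1 and Tgfbr3 are lower and Hs6st2, Adam10, Spock3 and Cd44 higher in every mutant pool, and the control band of Tgfbr3 is wide because of control replicate 4 (53.2 CPM).

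The large matrix proteoglycans of basement membranes and the partners of syndecans overlapped between genotypes. Hspg2 (perlecan) had a mean of 1300.4±205 CPM in the control and 1378±189 CPM in the mutant pools, and Agrn (agrin) at 577±58.3 and 570.0±67.8 CPM. On the log2 scale Hspg2 was 0.08 (standard error 0.13) above control and Agrn had a fold change of −0.02 (standard error 0.10). With the Y-linked covariate Hspg2 was at −0.17 and Agrn at −0.25, and both changed sign with single pools left out. Sdcbp (syntenin), the PDZ adaptor that binds all syndecan tails, was at 173±15.9 and 172±11.7 CPM (−0.01, standard error 0.08). Of the 8 listed syndecan partners, 4 fold changes were above 0 and 4 below, from −0.11 to 0.11.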

How the data were processed

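RNA from 7 pools of mouse OFT was sequenced from 1 end after a strand-keeping polyA library. The authors used Cutadapt for trimming and RSEM with the GRCm38 genome for quantification, required 1 CPM or more in 3 or more samples, and deposited CPM normalised by the TMM factors of edgeR. All 14732 listed genes meet that filter. Columns were matched to pools by title, and 0 sample columns were left unused. In every pool 100% of values came out as whole reads (tolerance 0.001 reads), which were used for edgeR 4.0.16 and DESeq2 1.42.0 as alternatives.

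The main test was limma 3.58.1 (R 4.3.3) with a mean-variance trend on log2(CPM+0.5), two-sided, over all 7 pools with no covariates and Benjamini–Hochberg adjustment over all genes. Fold changes on this scale understate those of low genes. The fits were tested on simulated data. Permutation used scipy 1.17.1. Positions and exon lengths are from GENCODE M21, and promoter windows from RefSeq. Alternatives were constants of 0.1 and 2, a mean of at least 5 CPM, median-of-ratios scaling, the replicate block, a Y-linked covariate and each pool left out. The values carry no filter beyond the authors' own, so genes under it could not be tested.

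The genes, lists and tests were chosen with earlier results of these data known. Named were all 10 glypicans and syndecans, each pathway gene without overlap, 11 pathway genes fixed by role, the 5 genes nearest Gpc1 and Gata6.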

Additional observations from a re-analysis of the deposited data

Results flagged for a closer look

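Of 29 sets of pools checked for a single pool far from the others, 1 was flagged, and chance flags about 1 in 20 such sets. It was the highest of the Gata6STOP/+ pools for Gpld1, replicate 3 at 1.051 CPM against 0.570 to 0.611 CPM in the other 3 mutant pools, a gap of 0.915 of the whole range, which is above the 95% critical value of Dixon for 4 samples. The check was made only on sets of 4 mutant pools, so control replicate 4 for Tgfbr3 was not examined in this way.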

How the results depend on the processing

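The number of genes past an adjusted p of 0.05 (0 in limma) was 1 with a constant of 0.1, 105 with edgeR's likelihood ratio test, 88 with DESeq2, 6 with the Y-linked covariate and 0 to 13 with a pool left out (13 without control replicate 4, 2 without Gata6STOP/+ replicate 3, 1 without Gata6STOP/+ replicate 1). The cause was not tested. The count of glypicans and syndecans was 1 with the likelihood ratio test, DESeq2 and the Y-linked covariate. That gene is Gpc1, chosen by this contrast, so nothing is read from it. The pathway count was 1 (Hs3st3b1) with the likelihood ratio test and DESeq2. Glypicans and syndecans without overlap numbered 1 to 2 with a pool left out, an alternative added after the values were seen. With the Y-linked covariate the Gpc1 fold change was −0.941. The fold changes of Gpc1 (−0.941 to −0.479), Gpc4, Sdc3 (−0.403 to −0.114) and Gata6 (−0.533 to −0.267) were below 0 and that of Sdc4 (0.060 to 0.149) above 0 in all 18 alternatives, while Gpc2, Gpc3, Gpc6, Sdc1 and Sdc2 changed sign in at least 1.

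Replicate numbers 3, 4 and 5 occur in both genotypes, but pools with the same number did not deviate together (r of −0.008, −0.118 and −0.002 across genes). What a shared number stands for is not given. These r rest on deviations from the means of 3 or 4 pools, so they cannot exclude a pairing. With the replicate block, the count over all genes was 14 in limma, 13 in edgeR's quasi-likelihood test and 118 in its likelihood ratio test, where the count of glypicans and syndecans was 1 (Gpc1 again) and Gata6 was at −0.423 with an adjusted p of 0.0164 (0.102 to 0.730 in the other alternatives). Since control has no replicate 1, that mutant pool drops out of the blocked comparison. Depth limits the low genes: Gpld1 rests on 14 to 37 reads a pool, Gpc1 on 2882 or more.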
